A study of Mus musculus with 10 samples.

Results

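Collagen genes were examined for chromatin accessibility in cultured mouse adipocytes, in which 589 of the 122984 peaks of the deposited count table were assigned to a collagen gene. The genes were the 42 autosomal protein-coding genes of RefSeq GRCm38 whose symbol reads Col, number, a, number. A peak was assigned to such a gene when its centre lay inside the bounds of the gene, which held for 427 peaks, or when it lay outside all protein-coding genes with a collagen gene nearest and at most 50 kb away, which held for 162 peaks. Of the 42 genes, 41 had at least 1 peak, with a median of 12 and a maximum of 36 at Col6a3, and Col10a1 had none. The assignment rests on position alone, and no RNA was measured in these libraries.

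The assay was ATAC-seq, where a transposase places sequencing adapters into open DNA. The 10 libraries were made from adipocytes grown out of the MAP line, which consists of immortalized progenitors of mouse adipocytes, in 5 groups of 2 libraries: vehicle (Control), forskolin for 4 hours (FSK4h), forskolin for 1 day (FSK1D), forskolin for 3 days (FSK3D) and rosiglitazone for 3 days (Rosi3D). Forskolin switches on adenylyl cyclase and so raises cyclic AMP, as the signal of noradrenaline does in fat, and rosiglitazone activates the nuclear receptor PPAR gamma. Every group, the control included, had been differentiated with insulin, 500 uM isobutylmethylxanthine, 1 uM dexamethasone and 1 uM rosiglitazone for 2 days and then with insulin and 1 uM rosiglitazone for 2 days, and treatments began at day 7 to 8. All cells are of 1 line, and 10000 sorted nuclei entered each library. Nothing in the labels ties the libraries of 1 group to separate cultures, so the p-values below measure the spread between these libraries only. The labels give 1 control group and no treatment time for it. Time in culture therefore cannot be told apart from treatment, above all at 3 days. The libraries are named by their numbers in the count table: S1 and S2 for control, S3 and S4 for FSK4h, S5 and S6 for FSK1D, S7 and S8 for FSK3D, S9 and S10 for Rosi3D.

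Collagens are triple-helical proteins of the extracellular matrix. Fibrillar collagens (types I, II, III, V, XI, XXIV and XXVII) build the load-bearing fibres, type IV forms the sheet of the basement membrane that wraps each adipocyte, and type VI forms beaded filaments that link the cell to that matrix. The remaining classes are short-chain network collagens, FACIT collagens that sit on fibrils, multiplexins of basement membranes, membrane-spanning collagens and the anchoring-fibril collagen VII. In fat, collagens I and VI accumulate in the fibrosis of obesity.

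Summed counts per library ran from 10410233 to 18935287. Levels are given in CPM, counts scaled to a common library total, on library sizes scaled by TMM, and a gene's level is the sum over its peaks. Peaks or genes are called risen or fallen at an adjusted p under 0.05 in edgeR's quasi-likelihood test, fitted over all 10 libraries and adjusted by Benjamini-Hochberg over all 118954 peaks or 17082 genes tested. All 8 adipocyte markers (Adipoq, Fabp4, Plin1 and others) had peaks, with a summed level of 802 to 882 CPM in control, 789 to 831 CPM in FSK4h, 712 to 725 CPM in FSK1D, 739 to 781 CPM in FSK3D and 1008 to 1021 CPM with rosiglitazone. Of these markers 1 rose and 3 fell at 4 hours, 6 fell at 1 day, 4 fell at 3 days and 2 rose with rosiglitazone. Of all genes tested, 12.1% rose and 23.2% fell at 4 hours and 28.4% fell at 1 day. At 3 days 10.4% of all genes fell, and 2.37% rose with rosiglitazone. The progenitor and fibroblast markers summed to between 249 and 279 CPM in every library. The macrophage and leukocyte list, of which 4 of 5 genes had peaks and Adgre1 had none, summed to 44.3 and 49.97 CPM in control, 68.2 and 70.7 CPM in FSK4h, 52.2 to 57.3 CPM at the later forskolin times and 63.5 and 64.1 CPM in Rosi3D. The endothelial list ran from 117 and 124 CPM in control to 139.6 and 150.1 CPM in FSK4h. The last 2 lists were higher with forskolin at 4 hours and the adipocyte list was lower at 1 and 3 days. The part of these lists in the collagen results was not tested. In bulk nuclei a change in the share of cells cannot be told apart from a change per cell.

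After 4 hours of forskolin, the sums of collagen genes rose more often than they fell. Of 41 genes 13 rose and 4 fell, where 35.3% of all genes were called, 12.1% as risen and 23.2% as fallen. These shares are not matched on where the peaks of a gene lie. In gene bodies, 21.6% of collagen peaks rose and 9.54% fell at 4 hours, beside 20.3% and 11.4% of all assigned peaks. The genes that rose were the fibrillar genes Col3a1, Col5a3 and Col27a1, the basement-membrane genes Col4a1 and Col4a2, the type VI genes Col6a1, Col6a2, Col6a3 and Col6a5, and Col14a1, Col15a1, Col17a1 and Col20a1. The genes that fell were Col1a2, Col11a2, Col8a2 and Col19a1. At 1 day 13 genes rose and 2 fell, against 9.34% and 28.4% of all genes (37.8% in either direction). At 3 days 6 rose and 4 fell, against 5.23% and 10.4% of all genes (15.6% in either direction), and rosiglitazone gave 6 risen and 3 fallen, against 2.37% and 5.16% (7.53% in either direction). In all, 27 collagen genes were called in at least 1 comparison with control and 14 in none, among them Col1a1, Col5a1, Col5a2 and Col12a1. The matching share of all genes called in at least 1 of these comparisons was not computed, so these 2 counts are a description only.

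The median log2 fold change of the 41 genes was 0.10 at 4 hours, 0.10 at 1 day, -0.01 at 3 days and 0.04 with rosiglitazone, beside -0.12, -0.13, -0.10 and -0.05 for all genes tested. Scaling by library size alone moved the all-gene medians to -0.02, 0.02, 0.00 and 0.05, and the split of collagen genes to 18 risen and 3 fallen, 21 and 1, 13 and 1, and 10 and 1. With offsets trended on level the split was 18 and 2, 19 and 1, 11 and 0, and 10 and 1, so under both of these scalings more genes were called risen and fewer fallen.

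**Figure D1:**
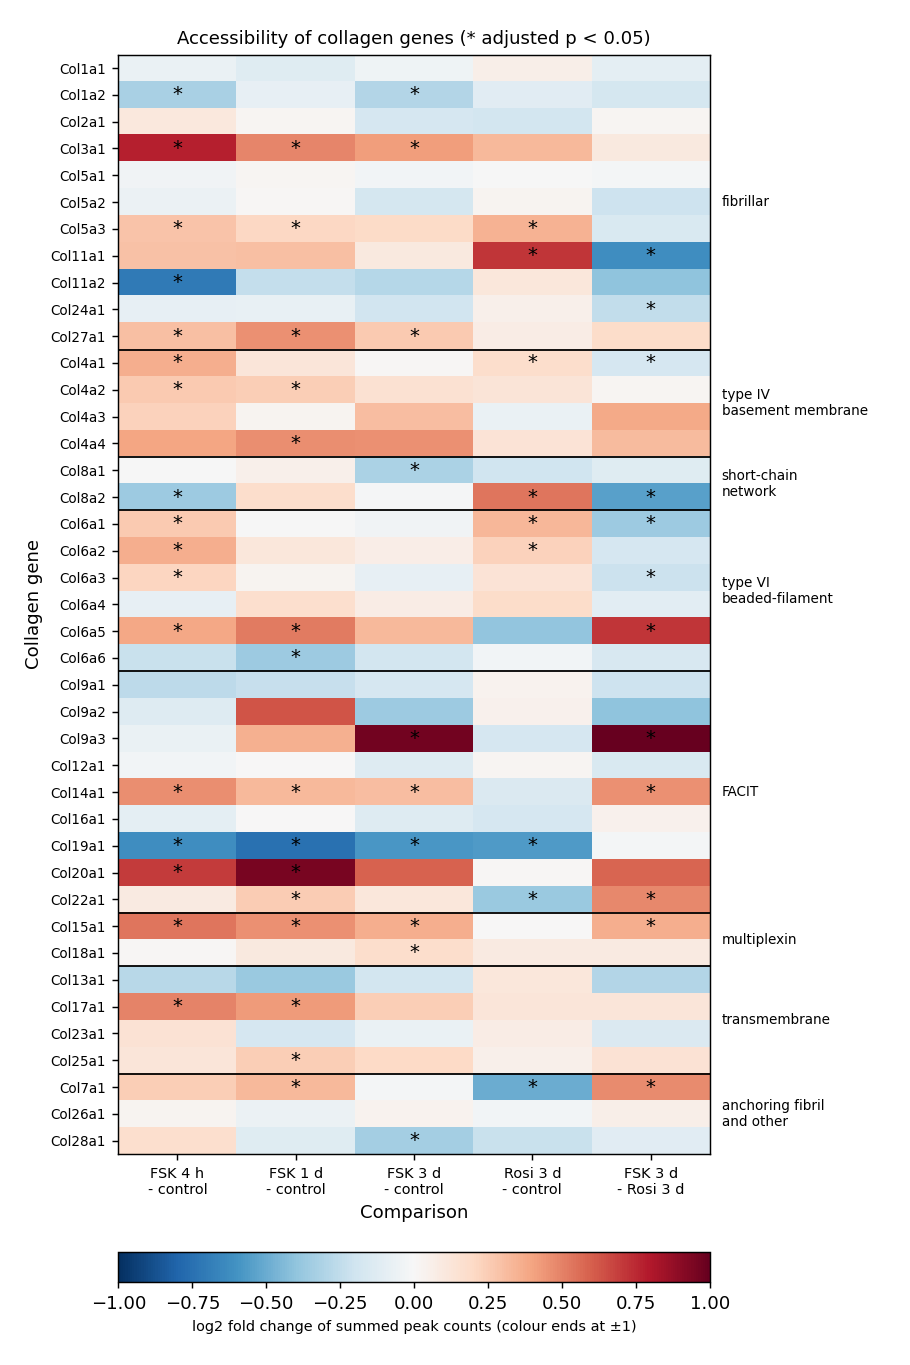
Log2 fold change of summed peak counts (colour, ending at 1 in both directions) for the 41 collagen genes with peaks (rows, grouped by class) in 5 comparisons (columns), with a star where the adjusted p was under 0.05. Col3a1, Col14a1, Col15a1 and Col27a1 are starred at all 3 forskolin times, and Col4a1, Col6a1 and Col6a2 at 4 hours and with rosiglitazone.

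Counted by peak, 127 of the 580 collagen peaks tested rose and 56 fell at 4 hours, beside 18.5% and 12.9% of all peaks (31.4% in either direction). At 1 day 88 rose and 32 fell, beside 12.9% and 9.84% (22.8%), and at 3 days 59 rose and 34 fell, beside 8.49% and 5.34% (13.8%). With rosiglitazone 38 rose and 22 fell, beside 3.22% and 3.35% (6.57%). As shares of the collagen peaks tested these are 21.9% and 9.66%, 15.2% and 5.52%, 10.2% and 5.86%, and 6.55% and 3.79%. In either direction 31.6%, 20.7%, 16.0% and 10.3% of collagen peaks were called, the first near the share of all peaks. On library size alone the splits became 141 and 45 at 4 hours, 121 and 19 at 1 day, 71 and 25 at 3 days and 46 and 9 with rosiglitazone. With trended offsets they were 115 and 69, 79 and 41, 54 and 36, and 44 and 21 in the same order. The all-peak median log2 differences were -0.0040, 0.039, 0.013 and -0.0042 in the main fit. On library size alone these medians moved to 0.096, 0.19, 0.11 and 0.097, so all peaks shifted upward there. Under trended offsets they were -0.027, -0.010, -0.0058 and 0.0023. At all 3 forskolin times, trended offsets thus called fewer collagen peaks risen and more fallen than the main fit did.

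A smaller share of peaks rose near the starts of the genes than elsewhere at 4 hours, for collagen genes as for all genes. Of the 39 tested collagen peaks within 1 kb of a listed start site (or of either gene end where no start was listed), 1 rose and 5 fell at 4 hours, while 84 of 388 other gene-body peaks and 42 of 153 peaks outside genes rose. Of all assigned peaks at 4 hours, 4.09% rose and 24.5% fell near starts or ends, 20.3% rose in gene bodies and 19.9% rose outside genes. The shares of collagen peaks that rose in these places were 2.56%, 21.6% and 27.5%, and 12.8%, 9.54% and 9.15% fell. Of all assigned peaks, 11.4% fell in gene bodies and 11.6% outside genes. With rosiglitazone, 17 of the 153 outside peaks rose (11.1%) and 3 fell, beside 3.37% and 3.52% of all such peaks, while in gene bodies 20 rose and 19 fell. When a gene's level was taken from its start or end peaks alone, 27 collagen genes could be tested, of which 0 rose and 4 fell at 4 hours, 2 rose and 4 fell at 1 day, 0 rose and 2 fell at 3 days and 0 were called with rosiglitazone (edgeR). Over all genes this setting called 2666, 5105, 209 and 159 genes in the same 4 comparisons. The number of all genes tested in this setting and their split by direction were not recorded. The collagen counts from it are thus a description only. The all-gene median differences were -0.23, -0.28, -0.17 and -0.10, so the starts or ends of genes in general leaned to lower values. The collagen calls were in part other calls than with all peaks. Col6a5 fell at 4 hours (-1.01, adjusted p = 0.0050), where its full sum rose. Col6a2 and Col8a1 fell at 1 day (-0.42 each, adjusted p 0.0092 and 0.0498), where their full sums were not called.

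The start-site peaks that changed included those of Col1a2, Col6a3 and Col6a5. The peak over the paired starts of Col4a1 and Col4a2 did not pass the test in any comparison. The RefSeq promoter windows of these genes (250 bases before to 50 after the start, build GRCm38.p6) are shown because they carry these contrasting results. Each is printed 5′ to 3′ on the strand of its gene, with matches to the motifs searched, on either strand, in capitals. Those found here were the GC box, spelled GGGCGG and bound by SP factors, and the box named after its letters CCAAT. The others were the element CAGACA, which SMAD proteins of TGF-beta signalling read, and the pattern TTNCNNAA of C/EBP factors. They lie at chr6:4505368-4505667 (+), chr1:90843922-90844221 (-), chr9:105960594-105960893 (-), chr8:11312777-11313076 (-) and chr8:11312555-11312854 (+).
Col1a2: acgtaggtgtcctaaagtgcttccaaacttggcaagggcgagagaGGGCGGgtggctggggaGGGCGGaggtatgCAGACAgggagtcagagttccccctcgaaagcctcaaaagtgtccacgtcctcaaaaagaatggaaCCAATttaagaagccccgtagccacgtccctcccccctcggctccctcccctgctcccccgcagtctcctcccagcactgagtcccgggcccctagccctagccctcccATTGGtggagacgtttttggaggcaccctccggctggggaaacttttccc
Col6a3: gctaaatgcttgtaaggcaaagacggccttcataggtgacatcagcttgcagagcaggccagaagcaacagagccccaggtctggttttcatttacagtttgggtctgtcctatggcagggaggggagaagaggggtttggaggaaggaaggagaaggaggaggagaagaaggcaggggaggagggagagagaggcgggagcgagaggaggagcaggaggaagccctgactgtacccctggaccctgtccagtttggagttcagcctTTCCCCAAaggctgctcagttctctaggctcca
Col6a5: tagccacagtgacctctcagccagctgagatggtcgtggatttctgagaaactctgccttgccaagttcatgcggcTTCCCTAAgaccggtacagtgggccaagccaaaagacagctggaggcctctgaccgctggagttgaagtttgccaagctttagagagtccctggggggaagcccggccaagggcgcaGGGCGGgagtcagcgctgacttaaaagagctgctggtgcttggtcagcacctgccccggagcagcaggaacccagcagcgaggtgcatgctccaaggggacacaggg
Col4a1: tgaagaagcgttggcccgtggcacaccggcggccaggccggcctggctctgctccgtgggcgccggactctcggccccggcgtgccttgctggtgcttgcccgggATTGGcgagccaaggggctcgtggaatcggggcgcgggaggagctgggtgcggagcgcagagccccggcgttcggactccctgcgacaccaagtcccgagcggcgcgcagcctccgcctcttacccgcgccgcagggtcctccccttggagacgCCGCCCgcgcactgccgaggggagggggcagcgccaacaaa
Col4a2: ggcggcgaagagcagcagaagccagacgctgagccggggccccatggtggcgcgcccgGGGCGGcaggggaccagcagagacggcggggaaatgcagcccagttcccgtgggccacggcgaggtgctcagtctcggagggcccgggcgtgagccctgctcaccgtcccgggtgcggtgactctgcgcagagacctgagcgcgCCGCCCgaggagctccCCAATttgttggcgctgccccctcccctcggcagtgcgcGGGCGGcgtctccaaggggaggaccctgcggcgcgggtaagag

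The Col1a2 window held 2 GC boxes, 2 CCAAT boxes and 1 SMAD element in 300 bases, and its GC content was 61.0%. The Col4a1 and Col4a2 windows overlap by 78 bp because their starts lie 21 bp apart on opposite strands, and they were richer in GC, at 74.0% and 73.7%. A promoter was listed for 33 of the 42 genes, in 36 windows, and not for Col1a1, Col2a1, Col4a3, Col5a2, Col9a3, Col12a1, Col14a1, Col22a1 and Col26a1. Over the 36 windows the GC box was present in 58.3%, beside 35.7% of all 32851 promoter windows, and the median GC content was 60.0% beside 52.7%. The CRE core TGACG, which CREB reads downstream of cyclic AMP, was present in 8.33% of collagen windows and 20.8% of all windows, and the AP-1 letters TGANTCA in 2.78% and 7.81%. Each share counts windows with at least 1 match on either strand, and a match is a description of the letters only.

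The start-site peak of Col1a2 (chr6:4505276-4505892) closed with forskolin and not detectably with rosiglitazone. Col1a2 encodes the alpha 2 chain of type I collagen, the main fibril of most connective tissue. The peak stood at 11.7 and 13.6 CPM in control, 7.17 and 7.97 CPM at 4 hours, 11.6 and 9.73 CPM at 1 day, 6.61 and 7.20 CPM at 3 days of forskolin and 13.6 and 12.0 CPM with rosiglitazone. Both libraries at 4 hours and both at 3 days lay below every control and rosiglitazone library, while the 1-day libraries lay between them and the controls. The fall was -0.75 in log2 at 4 hours (SE 0.181, adjusted p = 0.000821) and -0.88 at 3 days (SE 0.185, adjusted p = 0.000333), and the rosiglitazone difference was 0.00 (SE 0.172, adjusted p = 0.99).

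The start-site peak of Col6a3 (chr1:90843477-90844274) moved in opposite directions under the 2 drugs. Col6a3 encodes the largest chain of collagen VI and the source of its cleaved fragment endotrophin. The peak measured 14.5 and 17.5 CPM in control, 17.6 and 14.4 CPM at 4 hours, 12.6 CPM in both libraries of 1 day, 11.6 and 10.6 CPM at 3 days and 21.8 and 22.2 CPM with rosiglitazone. The 3-day forskolin libraries lay below and the rosiglitazone libraries above all control libraries. The differences from control were -0.53 (SE 0.157, adjusted p = 0.0133) and 0.45 (SE 0.147, adjusted p = 0.0451), and the direct comparison of forskolin with rosiglitazone at 3 days gave -0.99 (SE 0.148, adjusted p = 2.43e-07). Both differences from control lost their call when a library was left out (the forskolin fall without S2, adjusted p 0.245, or S8, 0.0603; the rosiglitazone rise without S1, 0.331, S2, 0.0568, S5, 0.0560, S6, 0.0558, S9, 0.166, or S10, 0.181), and on library size alone the forskolin fall had an adjusted p of 0.058, whereas DESeq2 gave 0.16 for the rosiglitazone rise.

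The Col6a5 start-site peak (chr9:105960605-105961027) held 9.79 and 9.66 CPM in control and 3.88 and 5.74 CPM at 4 hours, a difference of -1.01 in log2 (SE 0.221, adjusted p = 0.000211), while the gene as a whole rose. The start-site peak of Col6a2 (chr10:76622928-76623747) fell from 41.9 and 51.4 CPM to 34.2 and 35.7 CPM at 1 day (-0.42, SE 0.122, adjusted p = 0.00791). Without S2 (0.284) or S5 (0.0945) this was lost, as it was with trended offsets (0.225) and on library size alone (0.0613). The Col4a1 and Col4a2 start-site peak (chr8:11311640-11313246), which is 1607 bp wide and covers both starts, measured 46.9 and 54.2 CPM in control, 58.8 and 56.4 CPM at 4 hours and between 44.7 and 58.5 CPM in the other groups. Its difference at 4 hours was 0.19 (SE 0.120, adjusted p = 0.242), which became 0.29 on library size alone (adjusted p = 0.0242) and 0.41 under trended offsets (adjusted p = 0.000223). Over the 19 peaks on promoter windows, 0 rose and 2 fell at 4 hours by edgeR, 0 and 1 at 1 day, 0 and 2 at 3 days and 1 and 0 with rosiglitazone. Of all assigned peaks near starts or ends, 4.09% rose and 24.5% fell at 4 hours, 2.62% and 31.5% at 1 day, 1.77% and 7.17% at 3 days and 1.10% and 3.79% with rosiglitazone.

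**Figure D2:**
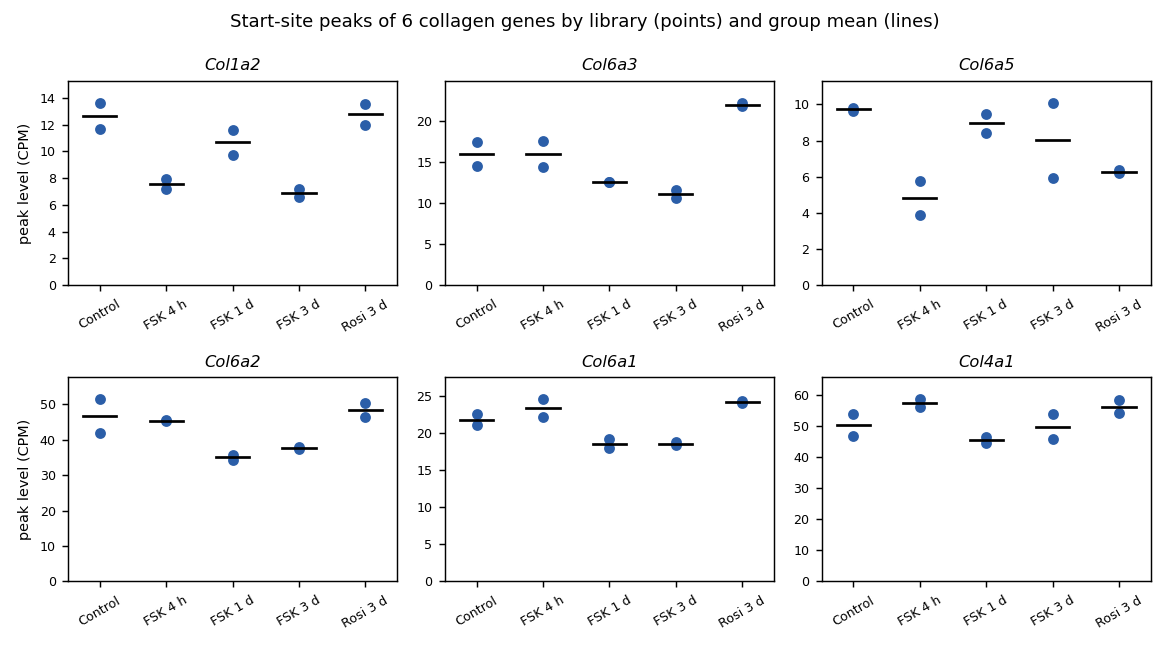
Level of the start-site peak (CPM, from 0) of 6 collagen genes in each library (points) with the mean of the 2 libraries (lines), by group. For Col1a2 (chr6:4505276-4505892) the FSK 4 h and FSK 3 d libraries lie at 6.61 to 7.97 CPM, below control and rosiglitazone, and for Col6a3 (chr1:90843477-90844274) the rosiglitazone libraries, at 21.8 and 22.2 CPM, lie above all others.

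Among the 11 fibrillar collagens, Col3a1 rose most at 4 hours, Col27a1 rose at all 3 forskolin times, Col5a3 rose with both drugs, and Col1a2 fell. Col3a1 (chr1:45311538-45349706) encodes type III collagen of elastic tissues and early repair. Its summed level was 32.1 and 31.8 CPM in control, 57.0 and 52.6 CPM at 4 hours, 44.3 and 45.2 CPM at 1 day, 44.9 and 40.2 CPM at 3 days and 37.9 and 41.8 CPM with rosiglitazone. Every treated library lay above both controls, and the rise was 0.78 (SE 0.100, adjusted p = 5.79e-06) at 4 hours, 0.49 (SE 0.101, adjusted p = 0.000999) at 1 day and 0.42 (SE 0.102, adjusted p = 0.00971) at 3 days. The rosiglitazone difference of 0.32 had an adjusted p of 0.0579. The 3-day call ended without S2 (0.0938) or S7 (0.0796) and in a fit of those 2 groups alone (0.081).

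The rise at Col3a1 lay outside the gene body, where the gene-body sum differed by 0.05 at 4 hours (adjusted p = 0.84) and the start-site peak by 0.06 (adjusted p = 0.92). It came from 3 of its 11 peaks, which are named here after their values were seen. The strongest (chr1:45355717-45356577), 6.44 kb past the 3′ end, went from a mean of 12.4 CPM in control to 29.0 CPM at 4 hours, a rise of 1.22. The others lie 41.9 and 35.3 kb before the start, at chr1:45269456-45269761 and chr1:45276065-45276441, and rose by 1.48 and 2.91. The latter stayed up by 3.16 at 1 day and 3.01 at 3 days and differed by -0.06 with rosiglitazone. Its control mean was 0.39 CPM, so its fold changes rest on few counts. The rise of 1.48 ended without S1 (0.178) or S3 (0.0850).

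Col27a1 (chr4:63214009-63334991), a fibrillar collagen of cartilage, rose by 0.30 (SE 0.0726, adjusted p = 0.00321), 0.46 (SE 0.0722, adjusted p = 0.000104) and 0.26 (SE 0.0729, adjusted p = 0.0206) at the 3 forskolin times, from 123 and 133 CPM in control to 165 and 151, 177 and 175, and 163 and 144 CPM. No forskolin library overlapped the controls, while the rosiglitazone libraries, at 132 and 137 CPM, did. Its peaks did not move together. The peak chr4:63283361-63283732 rose by 0.98 at 4 hours and fell by 1.55 with rosiglitazone, where it stood at 1.65 and 1.30 CPM beside 3.33 and 5.20 CPM in control. These calls ended without S1 (0.0675) or S3 (0.0835) at 4 hours and without S2 (0.0859) with rosiglitazone. The peak chr4:63290974-63291401 fell by 1.51 at 4 hours, from 4.14 and 6.94 CPM to 2.30 and 1.63 CPM. The gene call at 4 hours ended without S3 (0.0781) and that at 3 days without S1 (0.137), S2 (0.0632) or S7 (0.189), and in a fit of those 2 groups alone (0.17).

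Col5a3 (chr9:20770050-20815117), a chain of type V collagen that starts fibrils, measured 75.7 and 87.3 CPM in control, 97.6 and 102 CPM at 4 hours, 97.2 and 91.7 CPM at 1 day, 92.8 and 93.8 CPM at 3 days and 104 CPM in both rosiglitazone libraries. All treated libraries lay above both controls. The differences were 0.29 (SE 0.0817, adjusted p = 0.00981) at 4 hours, 0.21 (SE 0.0813, adjusted p = 0.0461) at 1 day, 0.19 (adjusted p = 0.108) at 3 days and 0.35 (SE 0.0817, adjusted p = 0.0117) with rosiglitazone. Each call ended without S1, which had the lowest level (adjusted p 0.130, 0.369 and 0.148). The 4-hour call also ended without S4 (0.0792), the 1-day call without S5 (0.255) or any of S3, S4, S6, S9 and S10 (0.0590 to 0.0687), and the rosiglitazone call without S9 (0.131) or S10 (0.0678).

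Col1a1 (chr11:94936224-94953042), which encodes the other chain of type I collagen, was called in no comparison: it measured 141 and 143 CPM in control, 135 CPM in both 4-hour libraries, 129 and 132 CPM at 1 day, 138 and 137 CPM at 3 days and 148 and 146 CPM with rosiglitazone. The 4-hour difference was -0.07 (SE 0.0638, adjusted p = 0.431). Its partner Col1a2 (chr6:4505618-4541543) fell from 109 and 101 CPM to 85.9 and 81.2 CPM at 4 hours (-0.32, SE 0.0800, adjusted p = 0.00389) and to 87.8 and 83.2 CPM at 3 days (-0.29, SE 0.0802, adjusted p = 0.0190), and stood at 99.2 and 98.5 CPM at 1 day. The lower levels at 4 hours and 3 days did not overlap with control. The gene-body peaks alone gave 0.04 at 4 hours (adjusted p = 0.85) and trended offsets gave -0.19 (0.067) and -0.17 (0.18), and the calls also ended without S1 (0.0508 and 0.129), S4 (0.0563, at 4 hours) or S2 (0.0604, at 3 days).

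Peaks of Col1a2 away from the start went other ways. The peak chr6:4483993-4484386, 21.4 kb before the start, stood at 1.11 and 1.82 CPM in control and 3.69 and 3.36 CPM at 1 day, a rise of 1.24, with 1.43 at 3 days and 0.19 at 4 hours. The 1-day call ended without S1 (0.100) or S5 (0.0526) and the 3-day call without S1 (0.0647). The intragenic peak chr6:4530887-4531430 fell with rosiglitazone, from 5.96 and 4.54 CPM to 1.58 and 2.65 CPM (-1.28, SE 0.290, adjusted p = 0.00208), a call that ended without S1 (0.0637) or S9 (0.101). At Col5a1, whose summed level was called in no comparison, the peak chr2:27917277-27917488 rose by 2.43 at 4 hours, from 1.51 and 0.991 CPM to 7.36 and 5.98 CPM, and the peak chr2:27846930-27847427, 39.2 kb outside the gene, fell by 1.85, from 9.49 and 8.34 CPM to 2.56 and 2.35 CPM. Both peaks were named by the rule that required a call and libraries without overlap. Peaks called in both directions thus lay within a sum that passed no test.

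Col11a1 (chr3:114030479-114220756), a chain of the thin fibrils of cartilage, rose with rosiglitazone, from 22.8 and 19.2 CPM to 33.2 and 35.4 CPM (0.72, SE 0.131, adjusted p = 0.00206). That call ended without S2 (0.0884). Col11a2 (chr17:34038919-34066684) fell at 4 hours, from 11.2 and 10.8 CPM to 7.69 and 5.86 CPM (-0.70, SE 0.191, adjusted p = 0.00748). Without S4 that call was lost (0.103). The paired chains of type XI collagen were thus called in different treatments, and whether their responses differed from each other was not tested.

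**Figure D3:**
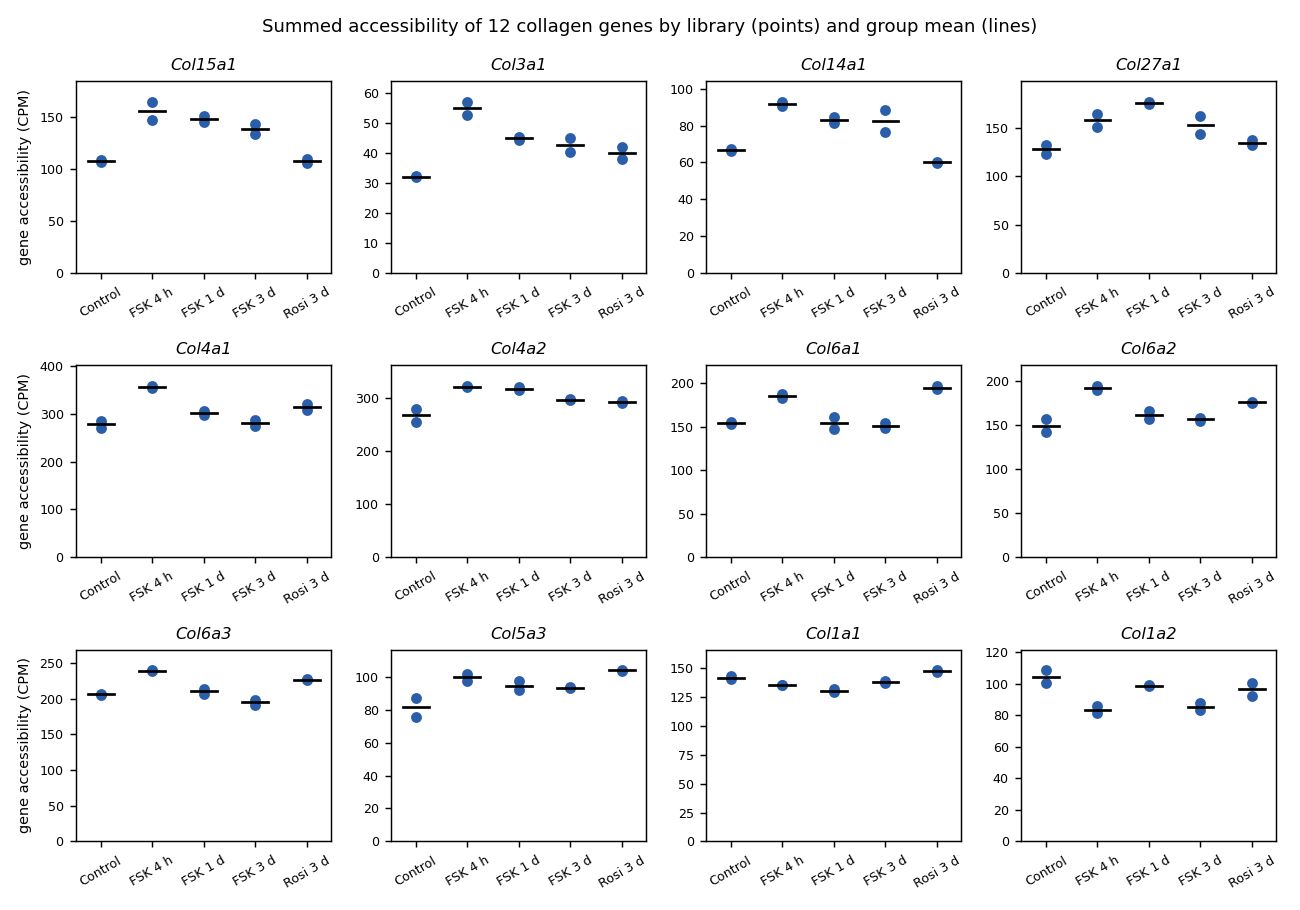
Summed accessibility (CPM, from 0) of 12 collagen genes in each library (points) with the mean of the 2 libraries (lines), by group. Col15a1, Col3a1 and Col14a1 lie above control at all 3 forskolin times, Col6a1 is high at FSK 4 h and with rosiglitazone, and Col1a2 is low at FSK 4 h and FSK 3 d.

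The type IV genes Col4a1 (chr8:11198423-11312889) and Col4a2 (chr8:11312805-11449287), which encode the chains of the common basement-membrane network and are read from neighbouring starts in opposite directions, both rose at 4 hours. Whether their later courses differ from each other was not tested. Col4a1 measured 271 and 286 CPM in control, 359 and 355 CPM at 4 hours, 307 and 299 CPM at 1 day, 287 and 275 CPM at 3 days and 321 and 309 CPM with rosiglitazone. Its 3-day libraries were back among the controls, and its rise was 0.36 (SE 0.0515, adjusted p = 2.00e-05) at 4 hours and 0.01 (adjusted p = 0.880) at 3 days. Col4a2 measured 256 and 280.4 CPM in control, 321 and 324 CPM at 4 hours, 322 and 316 CPM at 1 day, 297 and 299 CPM at 3 days and 295 and 292 CPM with rosiglitazone. It rose by 0.26 (SE 0.0527, adjusted p = 0.000663) at 4 hours and 0.25 (SE 0.0526, adjusted p = 0.00121) at 1 day, and its 3-day difference of 0.15 had an adjusted p of 0.0554.

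From 4 hours to 3 days Col4a1 fell by 0.35 (SE 0.0511, adjusted p = 0.000161), while Col4a2 differed by -0.11 (SE 0.0522, adjusted p = 0.191). At 4 hours 12 of 33 tested peaks of Col4a1 rose and 2 fell, and 11 of 29 of Col4a2 rose and none fell. At 3 days the counts were 1 and 0 for Col4a1 and 6 and 0 for Col4a2. Of all peaks 18.5% rose and 12.9% fell at 4 hours, and 8.49% and 5.34% at 3 days. The intragenic peak of Col4a2 at chr8:11384921-11385103, 72.2 kb from the start, kept its rise, with 1.92 and 1.24 CPM in control, 5.39 and 6.52 CPM at 4 hours and 6.13 and 3.72 CPM at 3 days (1.94 and 1.68). The peak chr8:11333807-11334238 of the same gene rose by 1.30 at 4 hours and fell by 1.11 with rosiglitazone, from 2.93 and 2.97 CPM to 1.10 and 1.60 CPM, and the fall ended without S1 (0.0942), S2 (0.126) or S9 (0.239).

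The rosiglitazone rise of Col4a1 was 0.18 (SE 0.0516, adjusted p = 0.0380) and ended in DESeq2 (0.12) and without any library other than S7 or S8 (0.0554 to 0.342). Col4a4, a chain of kidney basement membrane, rose at 1 day by 0.47 (adjusted p = 0.0388), from 8.18 CPM in both controls to 10.2 and 12.4 CPM, a call that ended without S1 (0.110), S2 (0.160) or S6 (0.261), with trended offsets (0.0545) and in DESeq2 (0.0972), and Col4a3 was called in no comparison with control.

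**Figure D4:**
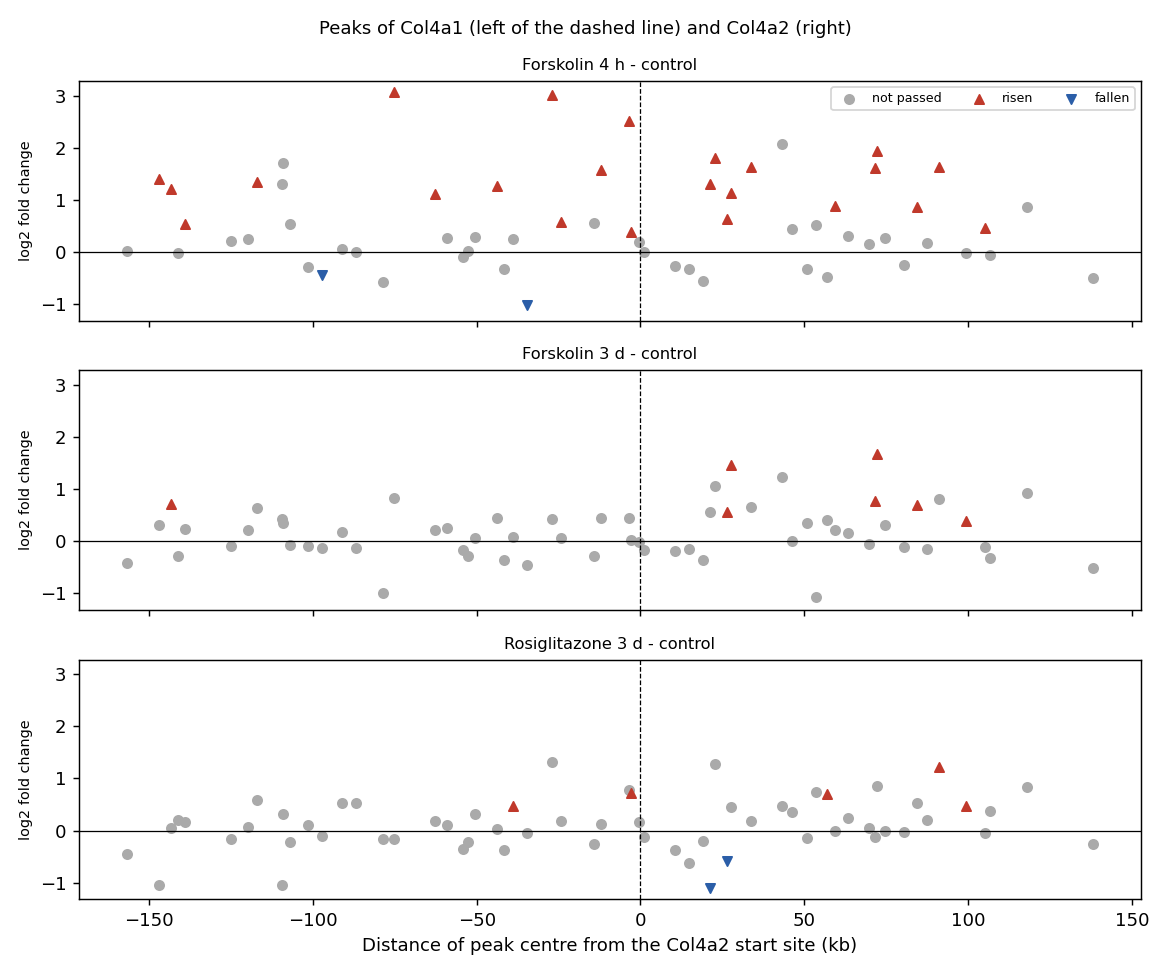
Log2 fold change against control of every tested peak of Col4a1 (left of the dashed line) and Col4a2 (right) by the distance of its centre from the Col4a2 start (kb), for 3 treatments, with upward triangles for risen, downward triangles for fallen and grey circles for peaks that did not pass. At FSK 4 h 12 peaks on the left and 11 on the right rose, and at FSK 3 d 1 and 6, with the peak at the starts grey in each panel.

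Of the 6 type VI genes, 4 rose at 4 hours of forskolin (Col6a1, Col6a2, Col6a3 and Col6a5), 0 were called at 3 days by edgeR and 2 rose with rosiglitazone. The latter, Col6a1 and Col6a2, had the same calls against control as Col4a1. Among all genes, 12.1% rose at 4 hours, 15.6% were called in either direction at 3 days and 2.37% rose with rosiglitazone. Col6a1 (chr10:76708792-76726044) measured 153 and 156 CPM in control, 183 and 187 CPM at 4 hours, 147 and 161 CPM at 1 day, 154 and 148 CPM at 3 days and 197 and 193 CPM with rosiglitazone. The rises were 0.26 (SE 0.0627, adjusted p = 0.00329) and 0.33 (SE 0.0627, adjusted p = 0.00251), and forskolin minus rosiglitazone at 3 days was -0.37 (SE 0.0620, adjusted p = 0.000283), with no overlap between those libraries. Its neighbour Col6a2 (chr10:76595756-76623630) measured 142 and 157 CPM in control, 189.7 and 195 CPM at 4 hours and 176 CPM in both rosiglitazone libraries. It rose by 0.36 (SE 0.0638, adjusted p = 0.000220) and 0.23 (SE 0.0640, adjusted p = 0.0301). Col6a3 (chr1:90766860-90844001) rose from 206 and 205 CPM to 238 and 239.7 CPM at 4 hours (0.22, SE 0.0549, adjusted p = 0.00465), and its rosiglitazone libraries, at 225 and 227 CPM, differed by 0.14 (adjusted p = 0.132).

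These sums rest on peaks between and beyond the genes, since 16 of 20 peaks of Col6a1 and 12 of 15 of Col6a2 lie outside the gene bounds. With outside peaks limited to 10 kb, the 4-hour differences were 0.15 (adjusted p = 0.14) for Col6a1, 0.02 (0.90) for Col6a2 and 0.20 (0.052) for Col6a3, so these calls ended, while Col6a2 at 1 day fell (-0.36, 0.0105). The rosiglitazone call of Col6a1 ended without S9 (0.0686) and that of Col6a2 without S1 (0.225), S9 (0.226), S10 (0.119), S3 (0.0546) or S4 (0.0540) and in DESeq2 (0.069).

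Between the genes the peaks split by treatment. The peak chr10:76653343-76653515, 29.8 kb before the Col6a2 start, stood at 1.51 and 2.31 CPM in control, 8.94 and 9.72 CPM at 4 hours, 7.99 and 7.59 CPM at 1 day, 8.61 and 6.57 CPM at 3 days and 2.00 and 2.04 CPM with rosiglitazone. Every forskolin library lay above every control and rosiglitazone library, with differences of 2.26 (SE 0.267, adjusted p = 1.29e-10), 2.00 and 1.97 and a rosiglitazone difference of 0.05. The peak chr10:76674557-76674961, nearest to the 3′ end of Col6a1, rose under both drugs, from 2.02 and 1.82 CPM to 7.43 and 9.72 CPM at 4 hours (2.16) and 4.47 and 4.26 CPM with rosiglitazone (1.19, a call that ended without S2, 0.0924, or S9, 0.0557). In Col6a3 the peak chr1:90876453-90877223, 32.9 kb before the start, rose under both as well, from 2.52 and 2.56 CPM to 7.03 and 8.51 CPM at 4 hours and 11.4 and 9.75 CPM with rosiglitazone (1.61 and 2.05). The peak chr10:76708412-76708959 at the 3′ end of Col6a1 fell by 1.15 at 4 hours, from 6.46 and 5.86 CPM to 2.96 and 2.60 CPM.

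**Figure D5:**
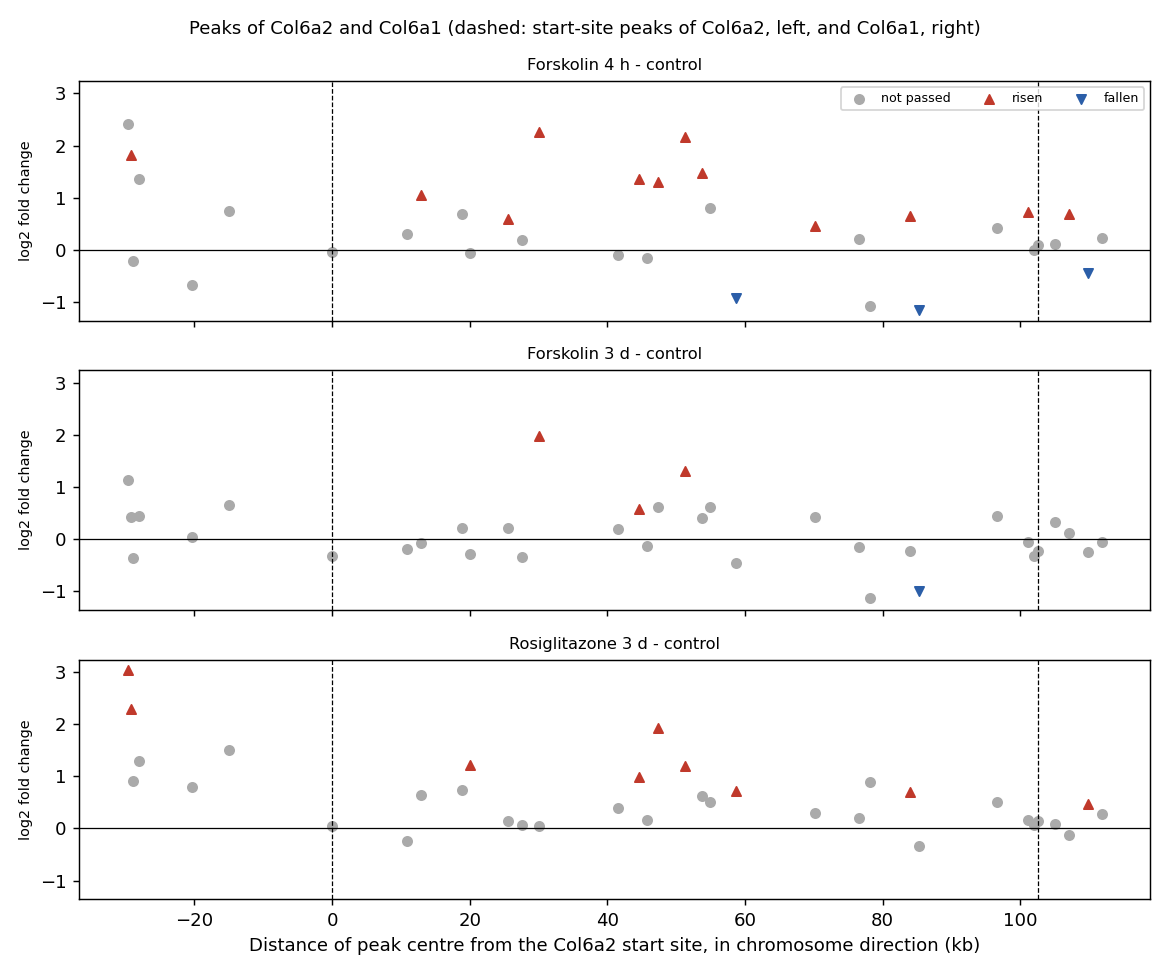
Log2 fold change against control of every tested peak of Col6a2 and Col6a1 by the distance of its centre from the Col6a2 start (kb, in chromosome direction), for 3 treatments, with upward triangles for risen, downward triangles for fallen and grey circles for peaks that did not pass. The dashed lines mark the start-site peaks of Col6a2 (left) and Col6a1 (right), which are grey in each panel.

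Of the minor type VI chains, Col6a5 (chr9:105856070-105962463) rose from 31.3 and 28.6 CPM to 40.1 and 37.9 CPM at 4 hours (0.38, SE 0.125, adjusted p = 0.0217) and 44.7 and 41.0 CPM at 1 day (0.52, SE 0.123, adjusted p = 0.00271), and stood at 22.3 and 23.1 CPM with rosiglitazone (-0.39, adjusted p = 0.0693). At 3 days forskolin lay above rosiglitazone by 0.71 (SE 0.125, adjusted p = 0.000392). The 4-hour call ended without S2 (0.188), S3 (0.134) or S4 (0.0549) and the 1-day call without S2 (0.0619). Its neighbour Col6a6 fell at 1 day by 0.36 (adjusted p = 0.0171), from 26.1 and 27.3 CPM to 20.4 and 21.2 CPM, which ended without S2 (0.122) or S5 (0.107) and on library size alone (0.19).

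Of the multiplexins, which end in fragments that restrain vessel growth, Col15a1 opened with forskolin throughout and Col18a1 late. Col15a1 (chr4:47207655-47313167) measured 109 and 107 CPM in control, 165 and 147 CPM at 4 hours, 145 and 151 CPM at 1 day, 143 and 134 CPM at 3 days and 109.8 and 106 CPM with rosiglitazone. Every forskolin library lay above every control and rosiglitazone library. The rises were 0.54 (SE 0.0724, adjusted p = 1.02e-05), 0.46 (SE 0.0722, adjusted p = 0.000101) and 0.36 (SE 0.0729, adjusted p = 0.00248), the rosiglitazone difference was 0.00 (SE 0.0734, adjusted p = 0.982), and forskolin exceeded rosiglitazone at 3 days by 0.36 (SE 0.0716, adjusted p = 0.00128). These calls held without each library in turn, and in a fit of the 2 groups alone the 3-day rise had an adjusted p of 0.073.

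Of 27 peaks of Col15a1, 12 rose at 4 hours and none fell, 9 and 0 at 1 day, and 7 and 1 at 3 days. The shares of all peaks were 18.5% and 12.9%, 12.9% and 9.84%, and 8.49% and 5.34%. The peak chr4:47327704-47328317, 14.8 kb past the gene, stood at 2.52 and 1.65 CPM in control, 6.44 and 6.28 CPM at 4 hours, 5.76 and 6.72 CPM at 1 day, 9.02 and 5.62 CPM at 3 days and 1.93 and 1.73 CPM with rosiglitazone. Another, chr4:47176948-47177471, 30.8 kb before the start, rose at 4 hours (0.84, a call that ended without S2, 0.0749, or S3, 0.174) and not at later times: 5.05 and 4.54 CPM in control, 9.93 and 7.18 CPM at 4 hours, 4.08 and 4.89 CPM at 1 day and 2.89 and 2.93 CPM at 3 days, so that from 4 hours to 3 days it fell by 1.55 (SE 0.254, adjusted p = 6.94e-06). An intragenic peak 1.79 kb after the start (chr4:47209452-47210150) rose with rosiglitazone, from 4.14 and 3.47 CPM to 8.88 and 9.32 CPM (1.27), although the gene sum did not change detectably.

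Col18a1 (chr10:77052178-77166530) rose at 3 days from 242 and 239.7 CPM to 274 and 270.5 CPM (0.17, SE 0.0532, adjusted p = 0.0302), with 0.01 at 4 hours, a call that ended without S1 (0.0779), S2 (0.153), S3 (0.0510), S4 (0.0506) or S7 (0.0890) and in DESeq2 (0.096). Its peak chr10:77201670-77202264, 35.4 kb before the start, showed the late course, with 6.66 and 3.22 CPM in control, 3.55 and 6.46 CPM at 4 hours, 12.9 and 14.2 CPM at 1 day and 16.9 and 16.0 CPM at 3 days. The libraries of 4 hours overlapped the controls, and those of 1 and 3 days lay above both (0.06, 1.49 and 1.77). From 4 hours to 3 days the rise was 1.71 (SE 0.203, adjusted p = 4.19e-09).

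Of the 9 FACIT collagens, Col14a1 and Col20a1 rose with forskolin, Col9a3 rose late, and Col22a1 went up with forskolin and down with rosiglitazone. Col14a1 (chr15:55307644-55520803), which sits on the surface of type I fibrils, measured 67.1 and 66.2 CPM in control, 90.9 and 93.0 CPM at 4 hours, 81.6 and 84.8 CPM at 1 day, 88.2 and 76.6 CPM at 3 days and 59.9 and 60.4 CPM with rosiglitazone. All forskolin libraries lay above and both rosiglitazone libraries below the controls, with rises of 0.46 (SE 0.0859, adjusted p = 0.000330), 0.32 (SE 0.0857, adjusted p = 0.00605) and 0.31 (SE 0.0865, adjusted p = 0.0199) and a rosiglitazone difference of -0.15 (adjusted p = 0.316). Forskolin exceeded rosiglitazone at 3 days by 0.46 (SE 0.0852, adjusted p = 0.000700). The 1-day call ended without S2 (0.0616) and the 3-day call without S1 (0.0738), S2 (0.143) or S7 (0.191) and in a fit of the 2 groups alone (0.16).

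Col20a1 (chr2:180983323-181017545) has 2 peaks and rose from 5.35 and 7.35 CPM to 12.4 and 8.51 CPM at 4 hours (0.70, adjusted p = 0.0179) and 12.5 and 12.3 CPM at 1 day (0.95, SE 0.213, adjusted p = 0.00190). The 4-hour call ended without S1 (0.159) or S3 (0.260). Col9a3, a chain of the cartilage collagen IX with 2 peaks, stood at 5.15 and 3.63 CPM in control, 4.14 and 4.17 CPM at 4 hours and 9.97 and 6.80 CPM at 3 days (0.96, SE 0.255, adjusted p = 0.0147), and that call ended without S2 (0.202) or S7 (0.211). Col22a1 (chr15:71795795-72150979), a collagen of tissue junctions, stood at 62.3 and 51.0 CPM in control, 69.5 and 65.6 CPM at 1 day and 44.0 and 43.3 CPM with rosiglitazone. Its 1-day rise of 0.26 (adjusted p = 0.0400) ended without S2 (0.487), S5 (0.215) or any of S3, S4, S6, S9 and S10 (0.0523 to 0.0692). Its rosiglitazone fall of -0.37 (SE 0.100, adjusted p = 0.0259) ended without S1 (0.273), S9 (0.160) or S10 (0.121) and on library size alone (0.073). The direct difference between forskolin and rosiglitazone at 3 days, 0.48 (SE 0.0978, adjusted p = 0.00146), kept its call in each of these.

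Col19a1 fell in all 4 comparisons with control (-0.62, -0.75, -0.58 and -0.57), and nearly all counts of the gene came from 1 peak of its 8. That peak (chr1:24611596-24616141), 4546 bp wide and 25.9 kb outside the gene, had the highest count of all peaks in every library and held 1.68% to 2.87% of a library's counts. It was highest in the control libraries S1 and S2 (2.87% and 2.48%), and the other 8 libraries lay between 1.68% and 2.00%. As background, this stretch of mouse chromosome 1 is known as a nuclear copy of mitochondrial DNA, so its reads may come from either place, which was not tested. Without it, an alternative chosen after the data were seen, Col19a1 differed by 0.04 at 4 hours (adjusted p = 0.865), -0.02 at 1 day (adjusted p = 0.946) and 0.28 with rosiglitazone (adjusted p = 0.295). At 3 days it was still lower by edgeR (-0.49, adjusted p = 0.0488). On those counts 3 days minus 4 hours was -0.53 (adjusted p = 0.0401) and forskolin minus rosiglitazone at 3 days -0.76 (adjusted p = 0.00172). A second peak, chr1:24522277-24522534 in the gene body, chosen after its values were seen, fell by 1.68 at 1 day, 2.56 at 3 days and 1.60 with rosiglitazone. It rests on few counts, from 1.72 and 3.39 CPM in control to 0.590 and 0.237 CPM at 3 days. With all peaks counted, the 3-day call of the gene ended without S1 (0.0741) or S2 (0.0644) and under trended offsets (0.0562). The rosiglitazone call ended without S1, S2, S9 or S10 (0.0965 to 0.196) and under trended offsets (0.136). Leaving Col19a1 out, the collagen genes that fell numbered 3, 1, 3 and 2 in the comparisons with control.

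Among the remaining classes, Col17a1 (chr19:47646341-47692042), a membrane-spanning collagen of hemidesmosomes, rose at 4 hours from 40.1 and 34.0 CPM to 55.4 and 48.6 CPM (0.49, SE 0.109, adjusted p = 0.00170) and at 1 day to 47.7 and 51.2 CPM (0.42, SE 0.109, adjusted p = 0.00487). Both calls ended without S2 (0.0645 and 0.122) and with gene bodies alone (0.271 and 0.0513). Col25a1, whose gene sum rose at 1 day (0.25, adjusted p = 0.0346, ended without S1, S2, S5 or S6, 0.0739 to 0.175), held the peak with the largest rise at 4 hours among the named peaks. That peak, chr3:130377833-130378080, stood at 0.808 and 0.743 CPM in control, 7.76 and 4.95 CPM at 4 hours, 4.36 and 3.97 CPM at 1 day, 3.13 and 3.24 CPM at 3 days and 2.00 and 1.36 CPM with rosiglitazone. It rose by 3.02 (SE 0.372, adjusted p = 4.98e-10) at 4 hours and fell by 0.99 from 4 hours to 3 days, which ended without S3 (0.359), S7 (0.0727) or S8 (0.0592). Another peak in the same gene (chr3:130370123-130370704) fell by 1.65 at 4 hours, from 5.45 and 5.86 CPM to 1.84 and 1.75 CPM.

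Col7a1 (chr9:108953586-108984875), the anchoring fibril of skin, was called in the same comparisons as Col22a1, and in the same directions. Its sum was 28.5 and 23.3 CPM in control, 33.1 and 31.5 CPM at 1 day and 17.1 and 19.4 CPM with rosiglitazone, with differences of 0.33 (adjusted p = 0.0446) and -0.49 (SE 0.134, adjusted p = 0.0267). Its peak chr9:108982542-108983002 rose from 4.44 and 3.63 CPM to 12.8 and 12.0 CPM at 4 hours (1.62, SE 0.222, adjusted p = 1.08e-08), stood at 8.61 and 6.73 CPM at 3 days (0.94, ended without S2, 0.0782, or S7, 0.0920), and fell to 1.72 and 2.22 CPM with rosiglitazone (-1.01, SE 0.280, adjusted p = 0.0152). At 3 days the drugs differed by 1.96 there (SE 0.246, adjusted p = 1.72e-09). The gene calls ended without S2 (0.425), S5 (0.200) or S3, S4 and S6 (0.0592 to 0.0871) at 1 day, and without S1 (0.230), S2 (0.0502), S9 (0.253) or S10 (0.0544) with rosiglitazone, and the peak's rosiglitazone call without S1 (0.143) or S9 (0.159).

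Of the short-chain network genes, which build the hexagonal lattice of vascular and corneal matrix, Col8a2 (chr4:126286794-126314330) fell at 4 hours from 26.8 and 27.7 CPM to 21.4 and 20.9 CPM (-0.36, SE 0.119, adjusted p = 0.0222) and rose with rosiglitazone to 38.2 and 40.6 CPM (0.53, SE 0.113, adjusted p = 0.00584). The fall ended on library size alone (0.10) and without any of S1, S2, S3 and S4 (0.0592 to 0.135), and the rise without S1 (0.0581), S2 (0.0656) or S10 (0.0587). Col8a1 (chr16:57624256-57754737) fell at 3 days from 72.1 and 70.0 CPM to 55.3 and 58.6 CPM (-0.32, SE 0.0869, adjusted p = 0.0173), which ended on library size alone (0.067) and without S1 (0.0855), S2 (0.0908) or S7 (0.0797). Col28a1, a collagen of peripheral nerve, fell at 3 days by 0.34 (adjusted p = 0.0321), which ended on library size alone (0.14) and without S1 (0.0689), S2 (0.217), S8 (0.101) or S9 (0.0641). Its peak chr6:8172090-8172728 was transient, with 7.57 and 9.25 CPM in control, 20.1 and 19.9 CPM at 4 hours and 6.67 and 6.17 CPM at 3 days, a rise of 1.24 followed by a fall of 1.64 (adjusted p = 6.27e-11).

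Set against rosiglitazone at the same time of 3 days, forskolin left 6 collagen genes higher (Col14a1, Col15a1, Col22a1, Col6a5, Col7a1 and Col9a3) and 6 lower (Col11a1, Col24a1, Col4a1, Col6a1, Col6a3 and Col8a2), beside 8.39% of all genes in each direction (16.8% in either). By peak 83 were higher and 66 lower, beside 12.9% and 8.82% of all peaks (21.7% in either). Of the 19 peaks on promoter windows, 0 were higher and 5 lower by edgeR. Of all assigned peaks near starts or ends, 3.86% were higher and 6.03% lower in this comparison. The largest contrasts of the named peaks were those of Col3a1 at chr1:45276065-45276441 (3.07, on few counts), of Col15a1 at chr4:47327704-47328317 (2.02) and of Col6a6 at chr9:105774864-105775257 (-2.10), the latter at 1.77 and 0.791 CPM with forskolin and 6.47 and 5.00 CPM with rosiglitazone. The labels give no dose for either treatment, so the comparison holds for the conditions used. Of these 12 gene calls, those of Col4a1 (0.0506 to 0.372 without S3, S4, S8, S9 or S10), Col6a3 (0.115 without S9 and 0.0705 without S10), Col7a1 (0.191 without S7 and 0.124 without S9) and Col9a3 (0.0569 without S7) were lost when a library was left out. The Col24a1 call (-0.24) ended without S3, S4, S5, S6, S8, S9 or S10 (0.0501 to 0.272).

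Compared with 4 hours, 3 days of forskolin showed 1 gene higher, Col9a3, and 7 lower (Col28a1, Col3a1, Col4a1, Col6a1, Col6a2, Col6a3 and Col8a1), beside 3.66% and 5.05% of all genes (8.71% in either). By peak 26 were higher and 54 lower, beside 4.38% and 6.75% of all peaks (11.1% in either). Col15a1, Col14a1, Col27a1 and Col4a2 were not called in this comparison (-0.17, -0.16, -0.04 and -0.11, adjusted p 0.143 to 0.785 by edgeR). Whether these genes differ from the 7 called as lower was not tested.

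Genes that make, trim, bind and degrade collagen were counted in the same way. Of all genes 12.1% rose and 23.2% fell at 4 hours and 9.34% and 28.4% at 1 day, with medians of -0.12 and -0.13. Of 17 tested genes for modification and folding of procollagen in the endoplasmic reticulum, 2 rose and 4 fell at 4 hours and 1 rose and 8 fell at 1 day, with medians of -0.16 and -0.23. The share fallen at 4 hours was near that of all genes. P4hb, the shared subunit of prolyl 4-hydroxylase, went from 143 and 149.6 CPM to 110.3 and 120.3 CPM at 4 hours (-0.34, ended without S2, 0.0721, or S3, 0.0969) and 87.7 and 98.5 CPM at 1 day (-0.65, adjusted p = 2.96e-05). P4ha1, its catalytic subunit, fell by 0.30 and 0.32 at those times, and Serpinh1, the collagen chaperone, by 0.34 at 3 days (adjusted p = 0.00765), from 98.2 and 103 CPM to 79.8 and 79.7 CPM, a call that ended without S2 (0.0989).

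Of 13 genes for propeptide cleavage and crosslinking, 4 rose and 4 fell at 4 hours (median -0.06), beside 12.1% and 23.2% of all genes. Bmp1, the protease that removes the C-propeptide, rose at all 3 forskolin times, from 45.4 and 43.7 CPM to 57.7 and 59.6, 65.2 and 71.6, and 70.1 and 70.7 CPM (0.40, 0.62 and 0.66), and stood at 41.2 and 40.6 CPM with rosiglitazone. Pcolce, which enhances that cleavage, fell at all 3 times, from 45.1 and 47.5 CPM to 30.1 and 30.5 CPM at 4 hours (-0.61, adjusted p = 0.00011). Loxl2, a crosslinking enzyme, rose by 0.40 at 1 day (adjusted p = 0.00109). Lox, another, fell by 0.32 with rosiglitazone (adjusted p = 0.0360), a call that ended on library size alone (0.116) and without any library other than S7 or S8 (0.0532 to 0.340).

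Of 10 genes for breakdown and its inhibitors, 2 rose and 1 fell at 4 hours (median 0.13), beside 12.1% and 23.2% of all genes. The fall was that of Mmp14, the membrane collagenase (-0.38, ended without S4, 0.0755), and a rise was that of the inhibitor Timp2 (0.22, ended without S1, 0.0710, S2, 0.0550, or S3, 0.140). Of 10 receptors, 2 rose and 2 fell at 4 hours (median -0.04), near those shares. Itga2, the alpha chain of a collagen-binding integrin, rose from 22.5 and 20.5 CPM to 34.9 and 33.7 CPM at 4 hours (0.68, adjusted p = 0.000113) and was also up at 1 and 3 days (0.65 and 0.49, the latter ended without S2, 0.118, or S7, 0.0630). Ddr1, a receptor tyrosine kinase for collagen, fell in all 4 comparisons with control (-0.41, -0.44, -0.25 and -0.37). The last 2 of these calls ended without S2 (0.377 and 0.157) or S9 (0.0823 and 0.0881), and the 3-day call also without S3, S4 or S7 (0.0524 to 0.206) and on library size alone (0.120). Of 12 genes of TGF-beta signalling, the main inducer of collagen in fibrosis, 1 rose and 4 fell at 4 hours and 0 rose and 6 fell at 1 day by edgeR, with medians of -0.21 at both times beside -0.12 and -0.13 for all genes, of which 12.1% rose and 23.2% fell at 4 hours and 9.34% and 28.4% at 1 day. Tgfb2 fell from 88.4 and 102 CPM to 65.8 and 63.8 CPM at 4 hours (-0.56, adjusted p = 4.07e-05). Smad3 rose at 4 hours (0.25, adjusted p = 0.00359 by edgeR), while its gene-end peaks alone gave -0.53. The target gene Ccn2 fell by 0.36 at 1 day, which ended without S5 (0.0652) and on library size alone (0.0646), and by 0.47 at 3 days (adjusted p = 0.00179).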

How the data were processed

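Raw counts per peak for 10 ATAC-seq libraries were used as deposited by the authors, without normalization. Per the submitters' processing notes, the tools included Bowtie2 (alignment tool), MACS2, featureCounts, fastp, Picard, SAMtools and deepTools, on build GRCm38 or mm10, without versions. The sources used here do not give whether MACS2 ran on single or merged libraries, or whether cut positions were shifted. Columns carry a group and a running number, which named the libraries.

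Peaks were assigned with RefSeq GRCm38 gene bounds. No genome sequence was used, so exon and intron positions were not assigned. Counts were fitted with edgeR 4.0.16 (R 4.3.3, TMM, filterByExpr, robust quasi-likelihood F test) in 1 model of 5 groups over all peaks, and likewise on counts summed per gene. Of 589 collagen peaks, 580 passed the filter on low counts. Scripts were tested on simulated counts. Alternatives were library size alone, trended offsets, no filter, DESeq2 1.42.0, only the groups compared, other peak assignments and leaving out each library.

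The collagen members, gene lists and tests were chosen with earlier results of these data known. Named genes were a set of 11 collagens plus the 4 risen and 4 fallen with the smallest adjusted p per comparison. Named peaks were the 4 largest rises and falls per comparison among called peaks at or above the median level whose libraries did not overlap, at most 1 per gene, plus start-site peaks. In each pathway list the 2 called genes with the smallest adjusted p were named. Other names were chosen after their values were seen.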

Additional observations from a re-analysis of the deposited data

Results flagged for a closer look

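Accessibility differed between 4 hours and 3 days of forskolin for 8 collagen genes (edgeR, 3 days minus 4 hours, adjusted p under 0.05 over all genes). Of all genes, 8.71% were called in this comparison. Time in forskolin cannot be told apart here from time in culture. The log2 differences were -0.51 for Col28a1, -0.36 for Col3a1, -0.35 for Col4a1, -0.29 for Col6a1, -0.29 for Col6a2, -0.30 for Col6a3, -0.31 for Col8a1 and 1.03 for Col9a3. Of these, the calls ended without a library for Col28a1 (S3, adjusted p 0.0735), Col3a1 (S3, 0.227, S4, 0.0506, or S8, 0.0905), Col6a1 (S4, 0.0617), Col6a2 (S4, 0.0643), Col8a1 (S3, 0.178, S4, 0.108, or S9, 0.0644) and Col9a3 (S3, 0.0903, S4, 0.0697, or S7, 0.0966). The calls of Col4a1 and Col6a3 held without each library in turn.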

How the results depend on the processing

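No paired analysis was possible because the columns of the count table carry a group and a running number, and not the replicate number of the labels. Leaving out a library leaves 1 in its group, which is assumed to vary like the other groups. Collagen peaks called then ranged from 115 to 191 at 4 hours, 68 to 130 at 1 day, 55 to 92 at 3 days, 22 to 69 with rosiglitazone, 93 to 156 for forskolin against rosiglitazone and 24 to 85 for 3 days against 4 hours. Collagen genes called ranged from 12 to 17, 7 to 17, 2 to 13, 2 to 11, 8 to 14 and 3 to 12 in the same order. The lowest counts came without S3, S2, S2, S1, S10 and S3 for peaks and without S4, S2, S2, S1, S9 and S4 for genes. DESeq2 called 70 peaks at 1 day, 57 at 3 days, 27 with rosiglitazone and 35 for 3 days against 4 hours. Fitting the compared groups alone called 1 gene at 3 days and 3 for 3 days against 4 hours. Gene-end peaks alone called 4, 6, 2 and 0 genes against control, 2 for forskolin against rosiglitazone and 0 for 3 days against 4 hours, outside peaks within 10 kb called 6 genes at 3 days, and gene bodies alone called 5 with rosiglitazone.

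Signs reversed when the peaks counted changed, and why was not tested beyond that. With gene-end peaks alone the 4-hour values were -0.10 for Col5a3, -0.045 for Col6a2, -0.011 for Col6a3, -0.017 for Col27a1, -1.01 for Col6a5, -0.54 for Timp2 and -0.53 for Smad3. At 1 day they were -0.047 for Col4a2, -0.42 for Col6a2, -0.42 for Col8a1, -0.12 for Col6a5 and -0.34 for Loxl2, and at 3 days -0.033 for Col18a1. With rosiglitazone they were 1.40 for Col7a1 and 1.02 for Plod2. Forskolin against rosiglitazone gave -0.00098 for Col15a1, 0.19 for Col24a1 and -0.027 for Itga2, and 3 days against 4 hours 0.065 for Col3a1 and 0.0090 for Timp2. With outside peaks within 10 kb Col6a2 was -0.36 at 1 day, and with gene bodies alone it was -0.062 at 4 hours and -0.39 at 1 day, Col1a2 and Mmp14 were 0.040 and 0.023 at 4 hours and Mmp2 was -0.053 at 1 day. Under both of these Col19a1 was 0.040 at 4 hours, and 0.039 without the peak of highest count (added after seeing the data). Under all 3 settings it was 0.28 with rosiglitazone and -0.53 for 3 days against 4 hours. Depth limits peaks of few counts most.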
